A study of Mus musculus with 8 samples.

Results

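The 9 genes described here are the adult globin genes Hba-a1, Hba-a2, Hbb-bs and Hbb-bt and 5 genes of red cell precursors, Alas2, Slc4a1, Epb42, Klf1 and Gata1. They are 9 of the 21895 genes in the deposited expression table, and all 9 were found there by their symbols. They were chosen by their measured levels in these same libraries, which were already known to differ between miR-29a WT and miR-29a KO cochleae and among the WT cochleae. The differences between WT and KO are therefore given as a description, without a test of the 9 genes.

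Adult hemoglobin is made of α-globin and β-globin chains, each of which holds a heme group. Nucleated precursors of red cells switch on the globin genes together with the enzymes of heme synthesis and the proteins of the red cell membrane. The cell then expels its nucleus and becomes a reticulocyte, which transcribes nothing new but still holds globin mRNA, and the mature red cell loses most of this RNA. Transcription factors such as Gata1 and Klf1 belong to the nucleated stages, whereas globin mRNA is carried on into the blood.

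Cochlear RNA of WT mice and of miR-29a KO mice, which lack miR-29a constitutively and came from the breeding of heterozygous animals, was sequenced in 4 WT libraries (WT1 to WT4) and 4 KO libraries (KO1 to KO4). All animals were on the C57BL/6 background and no treatment was named. The series record gives an age of 21 days, while the methods of the study give another age in months. Both sexes were used in the study, but the sex was not given per library, and nothing said whether a library held 1 animal or a pool, so that p-values measure only the spread between these samples, which may be technical. As miR-29a itself was not analysed here, no check of the labels against the deleted gene was made. Genes of the Y chromosome were expressed in every library (summed FPKM 44.0 to 59.7 in WT and 44.4 to 54.9 in KO), and 1 of 4, Eif2s3y, was called lower in KO, a call lost in 7 of 18 alternative settings of the processing.

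Expression was given as FPKM (fragments per kilobase of transcript, scaled to the mapped fragments of the library). In genes with 1 annotated transcript, low FPKM values lay at steps of single fragments, which gave a depth of about 21.5 to 26.4 per library in units of 1000000 fragments. Of the values of these genes that came to between 0.5 and 5.5 fragments, 52.5% to 58.5% per library were within 0.1 of a whole number, where an even spread would give 20%. The step was itself placed at the densest point of these values between 0.03 and 0.06 FPKM times kilobases. Values near 1 fragment are therefore whole in part by construction, and 20% is too low a standard. Cochlear markers were present in every library, and their summed FPKM was 1610 to 2500 in WT and 1730 to 2190 in KO libraries. Coch, the secreted cochlin of the inner ear, was at 1230 to 1930 FPKM in WT and 1430 to 1840 FPKM in KO libraries. It made up most of each sum, and its highest value was 1.57 times its lowest. The other tested cochlear markers varied more, from 2 times (Gjb6) to 5.39 times (Tectb). Both WT1 and WT3 stood apart from the other WT libraries in the genes described here, WT1 by high and WT3 by low values, and the differences of the 9 genes are given with and without them.

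The α-globin and β-globin genes each come as a pair of copies. Hba-a1 and Hba-a2 lie on chromosome 11 (GRCm38), and in the table Hba-a1 was given the span 32283511 to 32297298, which contains the whole of Hba-a2 at 32296489 to 32297298. In GENCODE, Hba-a1 ends at 32284465. Hbb-bt and Hbb-bs lie on chromosome 7, at 103812524 to 103813996 and 103826534 to 103828096. The coding sequences of Hba-a1 and Hba-a2 have 426 bases and differ by 1 base, and those of Hbb-bs and Hbb-bt have 441 bases and also differ by 1 base. Beyond these single coding bases the copies are told apart in their transcripts outside the coding sequence: 67.5% of the runs of 50 bases in the Hba-a1 transcript also occur in Hba-a2, and 65.8% of those in the Hbb-bs transcript also occur in Hbb-bt. How reads that match both copies were counted was not given in the sources used here. The split between copies is therefore uncertain, and so are sums over copies. The stretches around the differing bases are shown because they are the only coding sequence that separates the copies, with the differing base in capitals (C381T from Hba-a1 to Hba-a2 and C417T from Hbb-bs to Hbb-bt, counted from 1 at the first coding base). Each stretch lies within the coding part of an exon (GENCODE on GRCm38).
Hba-a1, chr11:32284323-32284363, plus strand: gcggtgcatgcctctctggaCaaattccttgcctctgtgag
Hba-a2, chr11:32297140-32297180, plus strand: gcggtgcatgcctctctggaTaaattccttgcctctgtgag
Hbb-bs, chr7:103826672-103826712, minus strand: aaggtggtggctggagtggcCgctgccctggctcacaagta
Hbb-bt, chr7:103812663-103812703, minus strand: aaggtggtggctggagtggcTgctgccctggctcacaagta

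Hbb-bs, a β-globin, had the highest level of the 9 genes, at 4150, 1360, 259 and 1980 FPKM in WT1 to WT4 and 3500, 4690, 6550 and 2490 FPKM in KO1 to KO4. Its copy Hbb-bt was at 1800, 602, 124 and 1040 FPKM in WT1 to WT4 and 1620, 2440, 3620 and 1550 FPKM in KO1 to KO4. In both genes WT3 was the lowest library and KO3 the highest, WT1 lay among the KO libraries, and the groups overlapped. The log2 difference (KO minus WT, of log2(FPKM + 0.1)) was 1.63 ± 0.86 (SE, n = 4 and 4) for Hbb-bs and 1.83 ± 0.79 (SE) for Hbb-bt. Without WT3 these differences were 0.85 and 1.06, and without WT1 they were 2.19 and 2.35.

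Hba-a1, an α-globin, was at 828, 308, 48.2 and 383 FPKM in WT1 to WT4 and at 791, 871, 1260 and 612 FPKM in KO1 to KO4. Hba-a2, its copy, was at 450, 38.1, 12.3 and 108 FPKM in WT1 to WT4 and at 356, 241, 328 and 130 FPKM in KO1 to KO4. WT3 was again the lowest library of both, and WT1 was above KO1 and KO4 in Hba-a1 and above every KO library in Hba-a2, so that the groups overlapped. The log2 differences were 1.70 ± 0.77 (SE) for Hba-a1 and 1.83 ± 0.97 (SE) for Hba-a2, and without WT3 they were 0.89 and 1.0. Without WT1 they were 2.26 and 2.73.

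**Figure D1:**
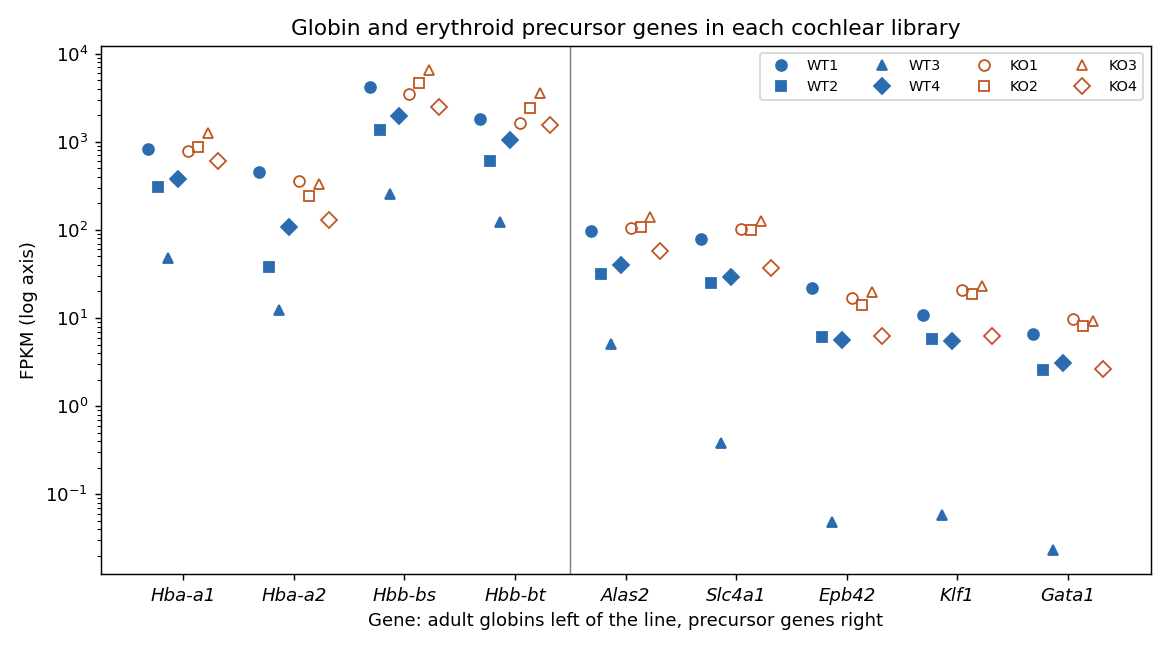
FPKM (log axis) of each of the 9 genes in the 8 libraries, with filled blue symbols for WT and open orange symbols for KO libraries and no averaging. WT3 is the lowest library of every gene, by a wider gap in Slc4a1, Epb42, Klf1 and Gata1 than in the globins and Alas2, and WT1 lies within or above the range of the KO libraries.

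As deposited, the ratio between the copies varied less in the β-globins than in the α-globins, with the split between copies uncertain in both pairs. The ratio of Hbb-bs to Hbb-bt was 1.90 to 2.31 in WT and 1.60 to 2.16 in KO libraries, and the highest was 1.44 times the lowest. The ratio of Hba-a1 to Hba-a2 was 1.84, 8.07, 3.92 and 3.54 in WT1 to WT4 and 2.22, 3.61, 3.85 and 4.72 in KO1 to KO4, a span of 4.39 times, in the pair whose copies share most of their transcript. Summed over copies, the ratio of α-globin to β-globin FPKM had a mean of 0.178 in the 4 WT libraries (SD 0.0258) and of 0.180 in the 4 KO libraries (SD 0.0322), and the group means differed by less than the SD of either group. Reads that match both copies make the level of this ratio uncertain. The α to β ratio of WT3 was 0.158, within the range of 0.156 to 0.224 of the KO libraries, although its globins were at the lowest level of all. The 4 globins together took 0.176% of the total FPKM in WT3, 0.923% to 2.87% in the other WT libraries and 1.92% to 4.08% in the KO libraries.

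Alas2 (chromosome X, 150547375 to 150570638), the erythroid enzyme that opens heme synthesis, was at 97.1, 31.9, 5.08 and 40.5 FPKM in WT1 to WT4 and at 104, 109, 140 and 58.0 FPKM in KO1 to KO4. Slc4a1 (chromosome 11, 102348824 to 102366203), the anion exchanger known as band 3, was at 78.2, 25.2, 0.385 and 29.2 FPKM in WT1 to WT4 and at 103, 100, 126 and 36.7 FPKM in KO1 to KO4. In both genes WT3 was lowest, WT1 was above KO4 and the groups overlapped. The log2 differences were 1.78 ± 0.78 (SE) for Alas2 and 2.68 ± 1.39 (SE) for Slc4a1, and without WT3 they were 0.97 and 1.10. Without WT1 they were 2.37 and 3.55.

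Epb42 (chromosome 2, 121017891 to 121037072), the membrane protein 4.2 that binds band 3, was at 21.9, 6.11, 0.0478 and 5.61 FPKM in WT1 to WT4 and at 16.7, 14.2, 19.7 and 6.32 FPKM in KO1 to KO4. WT1 had the highest Epb42 value of all 8 libraries. The log2 difference of 2.01 ± 1.34 (SE) was 0.52 without WT3, the smallest of the 9 genes there, and 2.93 without WT1. Klf1 (chromosome 8, 84901928 to 84905291), a zinc finger activator of β-globin and of many other erythroid genes, was at 10.7, 5.85, 0.0574 and 5.43 FPKM in WT1 to WT4 and at 21.0, 18.8, 22.8 and 6.30 FPKM in KO1 to KO4. Gata1 (chromosome X, 7959260 to 7978071), the factor that red cell and megakaryocyte precursors need, was at 6.51, 2.60, 0.0231 and 3.06 FPKM in WT1 to WT4 and at 9.63, 8.19, 9.21 and 2.63 FPKM in KO1 to KO4. In these transcription factors KO1 to KO3 were above every WT library, whereas KO4 lay among WT1, WT2 and WT4. The log2 differences were 2.51 ± 1.22 (SE) for Klf1 and 2.05 ± 1.13 (SE) for Gata1, with 1.14 and 0.81 without WT3 and 3.17 and 2.73 without WT1.

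The promoters of Alas2, Hbb-bt, Klf1 and Gata1 are shown because the globins and Alas2 were less reduced than Klf1 and Gata1 in WT3 and, to a smaller extent, in KO4. They are from RefSeq (GRCm38.p6), which gave windows from 250 bases before to 50 bases after the start for 8 of the 9 genes, and only bases before the start and outside GENCODE exons are printed. Capitals mark matches, on either strand, to AGATAA or TGATAA, forms of the site bound by GATA factors, and to CCNCNCCC, a form of the CACC box bound by Klf1. CCACACCC, which is held in CCNCNCCC, was also searched, as were TATAAA and CATAAA as TATA box forms.
Alas2 promoter, chrX:150547255-150547374, plus strand: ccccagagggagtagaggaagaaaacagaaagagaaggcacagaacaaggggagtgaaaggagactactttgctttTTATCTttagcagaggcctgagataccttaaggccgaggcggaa
Hbb-bt promoter, chr7:103813997-103814116, minus strand: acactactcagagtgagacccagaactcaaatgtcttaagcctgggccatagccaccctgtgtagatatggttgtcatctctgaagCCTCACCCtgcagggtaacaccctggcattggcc
Klf1 promoter, chr8:84901808-84901927, plus strand: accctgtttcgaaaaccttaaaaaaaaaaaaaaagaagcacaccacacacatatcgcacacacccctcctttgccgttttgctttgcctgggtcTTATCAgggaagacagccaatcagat
Gata1 promoter, chrX:7967911-7968030, minus strand: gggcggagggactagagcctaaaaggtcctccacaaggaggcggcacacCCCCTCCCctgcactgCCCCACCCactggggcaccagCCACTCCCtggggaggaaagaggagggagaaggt

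At least 1 form of the GATA site was found in the windows of Hba-a1, Hba-a2, Hbb-bs, Alas2, Epb42 and Klf1, which are 6 of 8, against 18.6% of all 32851 promoter windows. AGATAA was in 3 of the 8 (11.2% of all windows) and TGATAA in 3 of the 8 (9.05%). CCNCNCCC was in 4 of the 8, those of Alas2, Gata1, Hbb-bs and Hbb-bt, against 49.5% of all windows, and CCACACCC was only in that of Hbb-bs, against 3.56%. TATAAA was in 3 of the 8 (13.6%) and CATAAA in 0 of the 8 (11.9%). Both Alas2, which was high relative to the other precursor genes in WT3, and Klf1, which was not, had a GATA form in the printed stretch. The 247 bases upstream of the start that could be compared between Hba-a1 and Hba-a2 were identical. These matches of letters describe the windows and are not bound sites.

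The order of the 9 genes by FPKM, a level per length, was nearly the same in all libraries. Hbb-bs, Hbb-bt, Hba-a1, Hba-a2, Alas2 and Slc4a1 followed each other in this falling order in 8 of 8 libraries, Slc4a1 was above Epb42 in 8 of 8, and Klf1 was above Gata1 in 8 of 8. Epb42 was above Klf1 in 4 of the 8 libraries, and these neighbours did not differ beyond their spread. Within a group the spread over libraries was large: Alas2 had a mean of 43.6 ± 38.7 FPKM in WT and 103 ± 33.7 FPKM in KO (SD, n = 4).

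Summed and expressed as log2, the adult globin level was 12.82, 11.18, 8.79 and 11.78 in WT1 to WT4 and 12.61, 13.01, 13.52 and 12.23 in KO1 to KO4. The precursor gene level, the mean log2(FPKM + 0.1) of the 5 other genes, was 4.70, 3.26, -1.42 and 3.37 in WT1 to WT4 and 5.03, 4.91, 5.23 and 3.57 in KO1 to KO4. On both scales WT1 lay close to KO1 to KO3, KO4 was the lowest KO library and above WT2 and WT4, and WT3 was far below the rest. The KO minus WT difference was 1.70 for the globin level and 2.21 for the precursor gene level. It was 0.92 and 0.91 without WT3, and 1.37 and 1.37 with both WT1 and WT3 left out. The globin level minus the precursor gene level was 10.22 in WT3, 7.91 to 8.41 in the other WT libraries and 7.58 to 8.65 in the KO libraries, so that 7 libraries lay within a narrow range and WT3 outside it. In whole cochlear RNA, fewer cells of a type and less RNA per cell cannot be told apart.

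**Figure D2:**
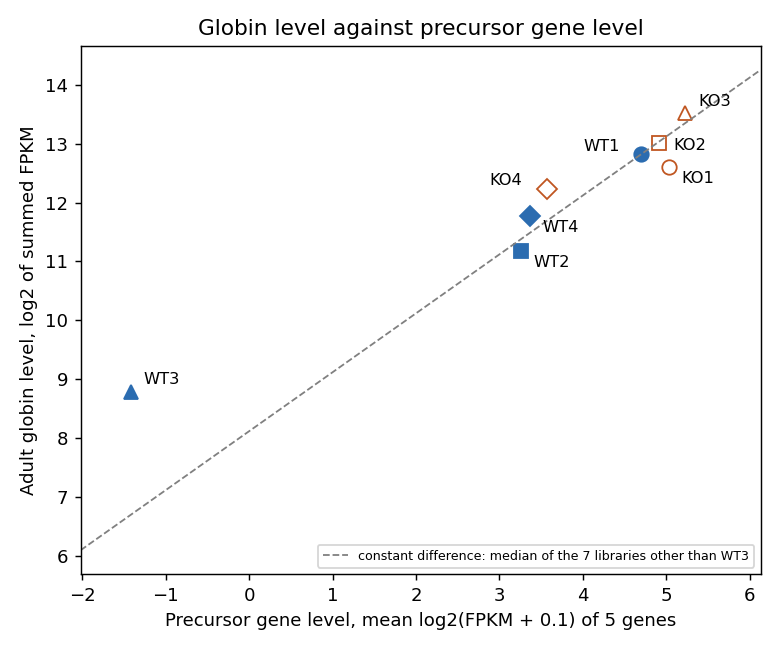
Adult globin level (log2 of summed FPKM) against precursor gene level (mean log2(FPKM + 0.1) of 5 genes), 1 point per library, filled for WT and open for KO; the dashed line marks a constant difference, the median of the 7 libraries other than WT3. WT3, at -1.42 and 8.79, lies above the line, and the other libraries follow it.

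WT3 did not lower the 9 genes evenly. Relative to the median of WT1, WT2 and WT4, the globins of WT3 were at 12.6% (Hba-a1), 11.4% (Hba-a2), 13.1% (Hbb-bs) and 11.9% (Hbb-bt), and Alas2 was at 12.5%. Slc4a1 was at 1.32%, Epb42 at 0.783%, Klf1 at 0.982% and Gata1 at 0.756%. Alas2 was thus reduced about as much as the globins, and the other precursor genes were reduced further. Over all 14990 tested genes the median of this percentage was 99.6% and the lower quartile 80.1%, and 315 genes (2.10%) were under 10%. Markers of some other blood cells, described below, were low in WT3 too. The median was 2.43% for the neutrophil lineage, with 12 of 14 genes under 10%. It was 5.35% for megakaryocytes and platelets (9 of 12 under 10%) and 13% for the B lineage (6 of 12). Macrophage markers were at 82% and mast cell, basophil and eosinophil markers at 33.3%.

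The lowest of these values rest on few fragments. By the steps of single fragments and the longest GENCODE transcript of each gene, the WT3 values correspond to about 1 fragment for Gata1, 2 for Klf1, 4 for Epb42 and 40 for Slc4a1, against 236 for Alas2. The exact 95% Poisson interval, which covers counting error only, reached from 0.0191% to 4.21% of the other WT libraries for Gata1, from 0.119% to 3.55% for Klf1, from 0.190% to 1.79% for Epb42 and from 0.945% to 1.80% for Slc4a1. For the globins and Alas2 the intervals ran from 9.63% (Hba-a2) to 14.3% (Alas2), so that the sets did not overlap within counting error. The ratio of Alas2 to Slc4a1 was 13.2 in WT3, 1.24 to 1.39 in the other WT libraries and 1.01 to 1.58 in the KO libraries. The 4 globins summed per Alas2 were 87.3 in WT3, within a factor of 1.45 of every other library. This is 1 library, so that the split has no replicate.

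A smaller difference of the same kind was seen in KO4. Relative to the median of KO1 to KO3, KO4 was at 70.2% for Hba-a1, 39.6% for Hba-a2, 53.1% for Hbb-bs, 63.7% for Hbb-bt and 53.4% for Alas2. Slc4a1 was at 35.7%, Epb42 at 37.8%, Klf1 at 30.0% and Gata1 at 28.5%, against a median of 99.7% over all tested genes. Hba-a2, whose split from Hba-a1 is uncertain, was the closest to the precursor genes.

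**Figure D3:**
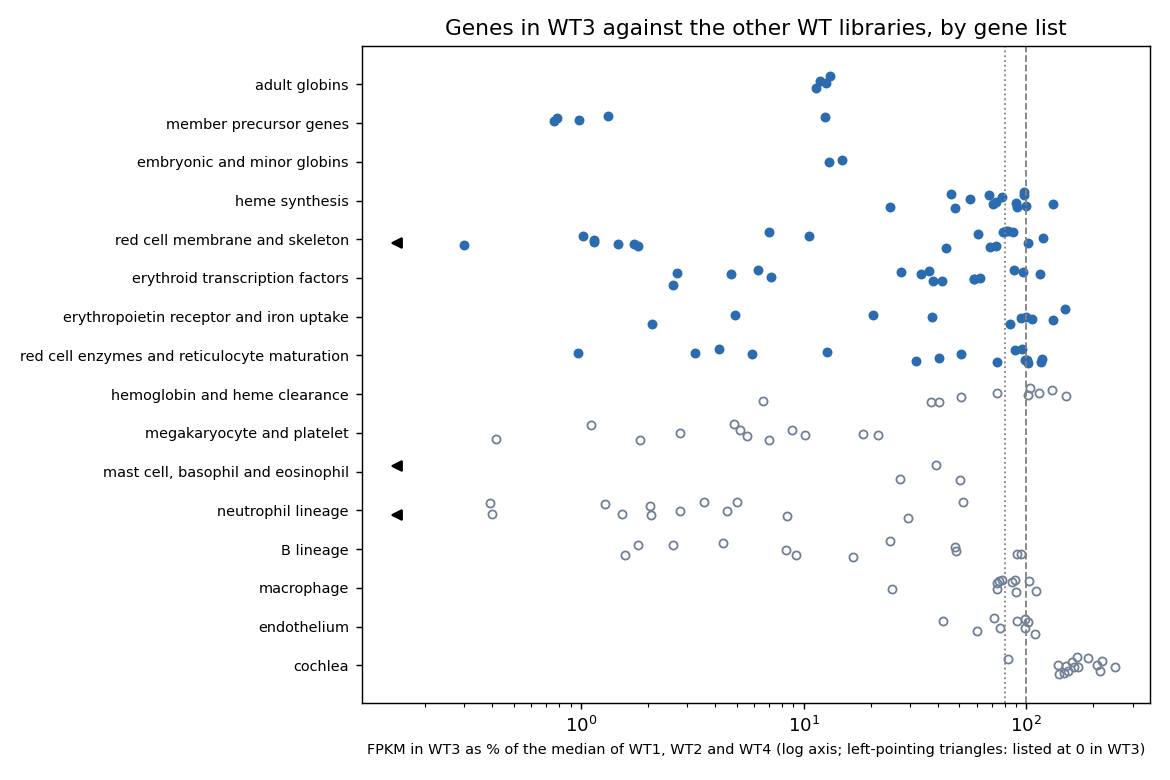
FPKM in WT3 as a percentage of the median of WT1, WT2 and WT4 (log axis), 1 point per tested gene in each list, filled for erythroid lists; triangles at the left edge are genes listed at 0 in WT3, and the dashed and dotted lines are the median (99.6%) and lower quartile (80.1%) of all tested genes. Globins and Alas2 sit near 12%, the other 4 precursor genes near 1%, and the cochlear markers lie mostly above 100%. Markers of the neutrophil lineage (median 2.43%) and of megakaryocytes and platelets (median 5.35%) are low as well.

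Of the 9 genes, all passed the filter on low values (mean FPKM of at least 0.5). In limma, 4.61% of the 14990 tested genes were called higher in KO at an unadjusted p under 0.05, and 0.507% were called lower. The groups did not overlap in 3.5% of all tested genes and in 0 of the 9. The 9 genes were chosen on this contrast, so no calls are counted for them. Over all tested genes 691 were called higher and 76 lower, and with median-ratio scaling between libraries 402 were called higher and 363 lower. Of all tested genes, 0 passed a Benjamini-Hochberg adjusted p of 0.05 in limma, with 767 at an unadjusted p under 0.05 and a smallest adjusted p of 0.558. The log2 differences of the 9 genes ranged from 1.63 to 2.68 (median 1.83) with all libraries, from 0.52 to 1.14 (median 0.97) without WT3, and from 1.15 to 1.93 (median 1.44) with both WT1 and WT3 left out, beside a median of 0.10, 0.13 and -0.03 over all tested genes.

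The wider erythroid program was followed in 6 lists of other genes, of which 78 were tested. Of these, 22 were called higher and 0 lower in KO by limma at an unadjusted p under 0.05, beside 4.61% and 0.507% of all tested genes. The median log2 difference was 0.57. A total of 76 of the 78 had a difference above 0. The share of all tested genes above 0 was not counted, but their median was 0.10. In 9 of the 78 the groups did not overlap, beside 3.5% of all tested genes. The 78 were read from the same 8 libraries and are not independent. The 22 calls became 17 without WT3, 46 without WT1, 14 without WT2, 4 without KO2 and 6 without KO3. Over all tested genes, the 691 called higher became 537, 1810, 542, 323 and 292 in the same settings. The adjusted p of every one of the 78 was 0.947 or higher.

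In heme synthesis, 7 of 14 genes were called higher and 0 lower, beside 4.61% and 0.507% of all tested genes. All 14 had a difference above 0, with a median log2 difference of 0.54. Cpox, the oxidase of coproporphyrinogen, was at 15.4, 13.8, 8.35 and 14.9 FPKM in WT1 to WT4 and at 34.5, 36.1, 34.3 and 15 FPKM in KO1 to KO4, with the KO4 value next to those of WT1 and WT4 (log2 difference 1.14 ± 0.32 (SE), unadjusted p = 0.0066 in limma). Slc25a38, the mitochondrial glycine carrier that feeds Alas2, rose by 0.60 ± 0.21 (unadjusted p = 0.0188, limma) and Abcb10, a mitochondrial transporter, by 0.83 ± 0.29 (unadjusted p = 0.0202, limma). The call of Cpox held in all 18 alternatives, whereas that of Slc25a38 was lost in 3 of 18, among them both scalings (median-ratio and quantile), and that of Abcb10 in 4 of 18, among them median-ratio scaling and the replicate block. WT3 had 75.4% of the other WT libraries at the median of this list, most of whose genes all cells use, and no gene of it was under 10%.

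In the red cell membrane and skeleton, 2 of 20 genes were called higher and 0 lower, beside 4.61% and 0.507% of all tested genes. All 20 had a difference above 0, with a median log2 difference of 1.27. Sptb, β-spectrin, rose by 0.54 ± 0.17 (unadjusted p = 0.0123, limma) and Icam4, a surface adhesion protein of red cells, by 1.12 ± 0.45 (unadjusted p = 0.0347, limma). The call of Sptb was lost in 1 of 18 alternatives, with both WT1 and WT3 left out, and that of Icam4 in 8 of 18, among them both scalings, the replicate block and leaving out WT3. Cldn13, a claudin-family gene of mouse erythroid cells, was listed at 0 in WT3 and had a difference of 2.59 ± 1.19 (unadjusted p = 0.0588, limma). In WT3, 9 of the 20 genes were under 10% of the other WT libraries. Singled out after their values were seen, Kel, a blood group antigen, was at 0.299% and Tspan33 at 10.6%.

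Among erythroid transcription factors, 3 of 16 genes were called higher (4.61% of all tested genes) and 0 lower, with a median of 0.57. Foxo3 rose by 0.39 ± 0.14 (unadjusted p = 0.0224, limma), Lmo2 by 1.13 ± 0.48 (unadjusted p = 0.0428, limma) and Tal1, which binds with Gata1 and Lmo2 in 1 complex, by 1.98 ± 0.84 (unadjusted p = 0.0434, limma). The call of Foxo3 was lost in 3 of 18 alternatives, that of Lmo2 in 7 of 18, among them both scalings and leaving out WT1 or WT3, and that of Tal1 in 6 of 18, among them median-ratio scaling and the replicate block. Of the list on the erythropoietin receptor and iron uptake, 4 of 10 were called higher and 0 lower, with a median of 0.45. Epor, the receptor itself, was at 2.09, 2.70, 0.125 and 2.54 FPKM in WT1 to WT4 and at 5.19, 8.29, 7.95 and 3.73 FPKM in KO1 to KO4. Every KO library was above every WT library (log2 difference 2.14 ± 0.78 (SE), unadjusted p = 0.0233, limma), and this list was chosen with such values known. Stat5a, which acts below the receptor, rose by 0.40 ± 0.15 (unadjusted p = 0.0257, limma) and Tfrc, the transferrin receptor of all dividing cells, by 0.49 ± 0.18 (unadjusted p = 0.0267, limma). The call of Epor was lost in 2 of 18 alternatives, without KO2 and without KO3, that of Tfrc in 5 of 18, and that of Stat5a in 9 of 18, among them both scalings, the replicate block and leaving out WT3.

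Of red cell enzymes and genes of reticulocyte maturation, 5 of 16 were called higher (4.61% of all tested genes) and 0 lower. Their median was 0.81 over the list. Bpgm, which makes 2,3-bisphosphoglycerate in red cells, rose by 1.06 ± 0.32 (unadjusted p = 0.0102, limma) and Trim58, an erythroid ubiquitin ligase, by 2.13 ± 0.78 (unadjusted p = 0.0242, limma). The call of Bpgm held in all 18 alternatives and that of Trim58 was lost in 2 of 18, without KO2 and without KO3. Isg20, singled out after its value was seen, was at 12.7% of the other WT libraries in WT3, close to the globins.

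Of the embryonic and minor globins, Hbq1a and Hbq1b, the θ-globins, passed the filter. Of these 2, 1 was called higher, beside 4.61% of all tested genes. Hbq1b was at 2.32, 0.776, 0.131 and 0.885 FPKM in WT1 to WT4 and at 3.84, 3.32, 3.56 and 0.991 FPKM in KO1 to KO4 (log2 difference 1.70 ± 0.71 (SE), unadjusted p = 0.042, limma), and its call was lost in 8 of 18 alternatives, among them both scalings and leaving out WT3, at a difference of 1.08. Hbq1a had a difference of 0.63 ± 0.57 (unadjusted p = 0.305, limma). In WT3 they were at 14.8% (Hbq1b) and 13.0% (Hbq1a) of the other WT libraries, or about 2 fragments each, with exact 95% Poisson intervals of 1.74% to 52.0% and 1.81% to 54.0% that overlap those of the adult globins and also those of Klf1 and Gata1. The embryonic globins were at or near 0: Hba-x was listed at 0 in 6 of 8 libraries, Hbb-y in 5, Hbb-bh1 in 5 and Hbb-bh2 in 7, and the highest value of any was 0.270 FPKM, for Hbb-y in KO3.

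**Figure D4:**
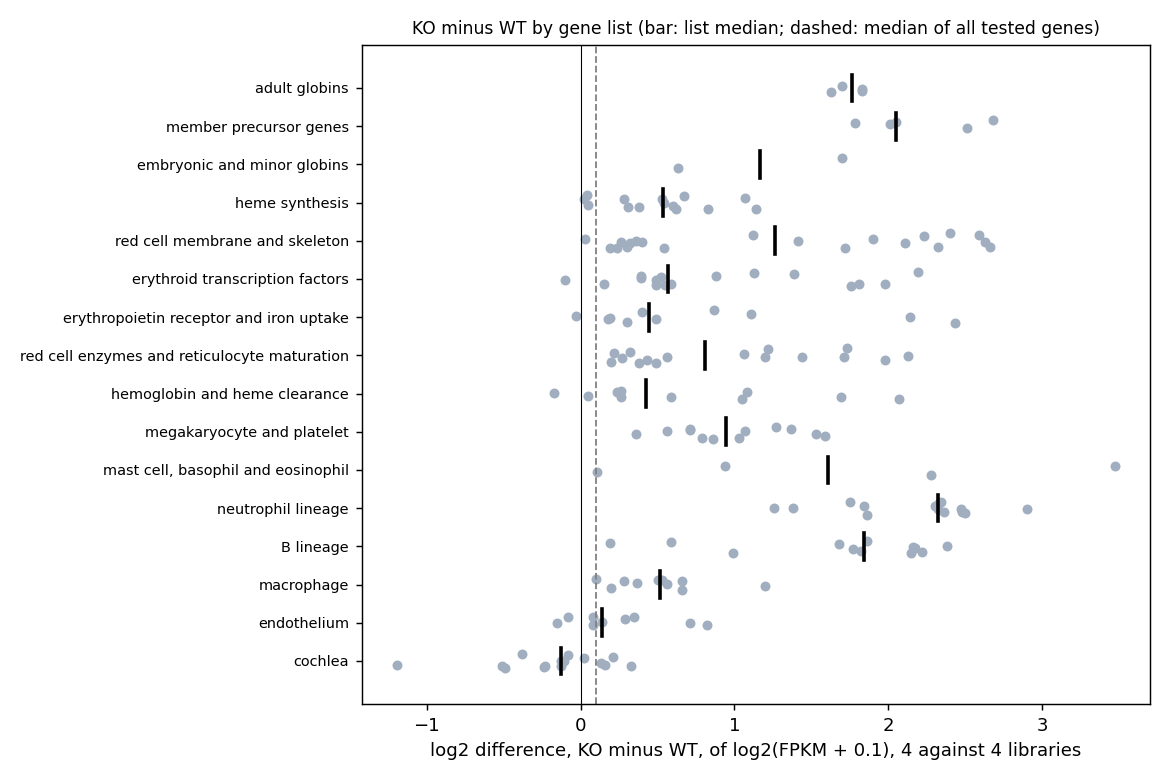
log2 difference (KO minus WT, 4 against 4 libraries, of log2(FPKM + 0.1)) of each tested gene by list, with a black bar at the list median and a dashed line at the median of all tested genes (0.10). The medians of the erythroid lists run from 0.45 to 1.27 beside 2.32 for the neutrophil list and -0.13 for the cochlear list.

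The summed markers of other blood cells were lowest in WT3, as the globins were. In the other libraries they followed the order of the globins only in part. Those of the neutrophil lineage summed to 78.3 to 10900 FPKM in WT and 1930 to 5710 FPKM in KO libraries, with the lowest sum in WT3 and the highest in WT1, and 0 of 14 were called (median 2.32), although Ctsg, a granule protease, was listed at 0 in WT3. WT2, WT4 and KO4, next lowest in the globins, were also next lowest in the neutrophil sums, at 744, 1030 and 1930 FPKM. The summed globins were highest in KO3 and not in WT1. Megakaryocyte and platelet markers summed to 11.1 to 299 FPKM in WT and 123 to 238 FPKM in KO libraries, and 0 of 12 were called (median 0.95). Markers of the B lineage summed to 36.8 to 83.6 FPKM in WT and 78.6 to 151 FPKM in KO libraries (median 1.84). Of these 12 markers, 0 were called lower and 5 higher, beside 4.61% of all tested genes called higher. Among them were Vpreb1 (2.16 ± 0.43, unadjusted p = 0.000844, limma), Igll1 (2.38 ± 0.64, unadjusted p = 0.00511, limma) and Rag1 (1.68 ± 0.51, unadjusted p = 0.00952, limma), which belong to B cell precursors, and the smallest Benjamini-Hochberg adjusted p of the list was 0.922 in limma.

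Mast cell, basophil and eosinophil markers ran from 1.37 to 220 FPKM in WT and from 3.35 to 154 FPKM in KO libraries, with 4 of 11 tested and 0 called, and Mcpt8, Fcer1a and Tpsab1 were listed at 0 in at least 1 library. Macrophage markers summed to 88.0 to 184 FPKM in WT and 91.7 to 192 FPKM in KO libraries, and 0 of 10 were called (median 0.51). Endothelial markers ran from 72.0 to 85.9 FPKM in WT and from 84.8 to 99.6 FPKM in KO libraries, and 1 of 9, Plvap, was called higher (0.82 ± 0.30, unadjusted p = 0.0249, limma; lost in 4 of 18 alternatives). Of the genes that clear hemoglobin and heme, 1 of 10 was called higher: Cd163, the receptor that takes up haptoglobin with hemoglobin (2.07 ± 0.65, unadjusted p = 0.0112, limma). Of the 15 cochlear markers, 0 were called higher and 1 lower, beside 0.507% of all tested genes called lower. It was Tectb, of the tectorial membrane (-1.19 ± 0.36, unadjusted p = 0.0101, limma). At the median of the cochlear markers, WT3 had 163% of the other WT libraries. Over these marker lists, 7 of the 86 tested genes were called higher, 5 of them in the B lineage, beside 4.61% of all tested genes. The 7 became 38 without WT1, 14 without KO4 and 4 without KO2. Over all tested genes 691 were called higher, against 1810, 775 and 323 in the same settings. The calls of Vpreb1, Igll1, Rag1, Cd163 and Tectb held in all 18 alternatives. The part of these other cells in the levels of the globin and precursor genes was not tested.

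**Figure D5:**
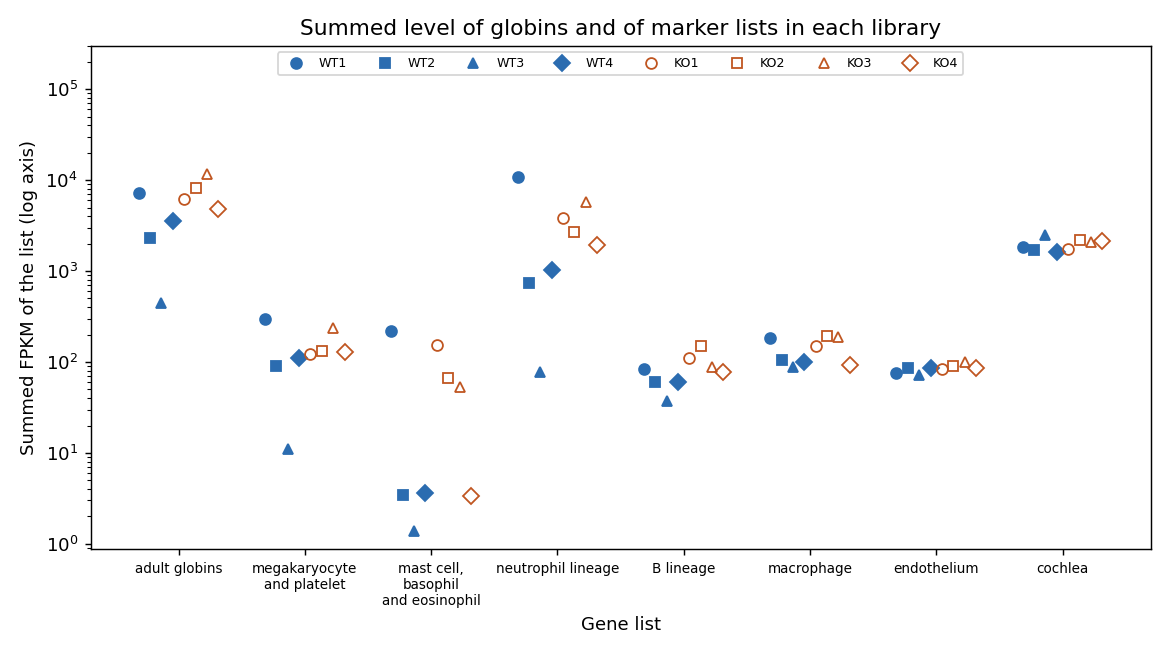
Summed FPKM (log axis) of the 4 adult globins and of marker lists for other cell types, 1 symbol per library, filled for WT and open for KO. The neutrophil sums span from 78.3 (WT3) to 10900 (WT1) FPKM, whereas the cochlear sums, which are mostly Coch, stay between 1610 and 2500 FPKM. Other cochlear markers varied more than Coch.

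Over the 8 libraries, Pearson's r of log2(FPKM + 0.1) was 0.928 to 0.995 between globins, 0.973 to 0.996 between the 5 precursor genes and 0.890 to 0.996 between a globin and a precursor gene. Without WT3 these ranges were 0.823 to 0.983, 0.855 to 0.985 and 0.746 to 0.984. Among all 14981 other tested genes, the 5 with the highest r with the precursor gene level included Btnl10 (0.999), Trim10 (0.998), Rhag (0.998) and Ermap (0.997). Rhag is a Rh complex glycoprotein and Ermap a red cell surface protein, and the r of these 4 was 0.989 to 0.996 without WT3. With the adult globin level the highest r was that of Hist1h2bk (0.997), Mcm5 (0.991), Hist1h3i (0.991), Hist1h3a (0.991) and Hist1h3c (0.991), or 0.962 to 0.988 without WT3. Mcm5 is a part of the helicase of DNA replication, and the histone genes belong to a family of near-identical copies whose reads can be split, so that their values are uncertain. Hist1h3a had 149, 31.1, 1.82 and 40.3 FPKM in WT1 to WT4 and 135, 189, 207 and 57.2 FPKM in KO1 to KO4. All these values share their libraries, so that r describes the 8 libraries and carries no p.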

How the data were processed

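The authors made strand-specific libraries after removal of ribosomal RNA, aligned the read pairs by Hisat2 and, for each library, deposited 1 FPKM value per gene, with no further scaling seen. The tool and annotation behind the FPKM were not given in the sources used here. The submitters' processing notes name mm9, whereas the gene coordinates are those of GRCm38. The authors tested counts with DESeq2, which was not repeated. Of 21895 genes, 27 symbols turned into dates were restored, and 0 per-sample columns were left unused.

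The log2 of FPKM plus a pseudocount of 0.1 was fitted with limma 3.58.1 in R 4.3.3, genotype only, with a variance trend, over the 14990 genes whose FPKM averaged at least 0.5 in the 8 libraries. Calls used a two-sided unadjusted p under 0.05, and Benjamini-Hochberg adjustment covered all tested genes. The fit was tested on simulated data. A list's median stands beside that of all tested genes. The members and lists were chosen with earlier results of these data known.

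The genes named are the 9 members, up to 3 genes per list with the smallest unadjusted p, genes called against their list's direction, genes listed at 0, and the 5 genes most correlated with each level; exceptions are marked, and a few genes that the rule names are not reported here. Alternatives covered pseudocount, filter, scaling, variance trend, replicate block and left-out libraries, and leaving out both WT1 and WT3 was added after seeing the data. Promoter windows are RefSeq's and transcripts those of the mouse GENCODE release M21.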

Additional observations from a re-analysis of the deposited data

Results flagged for a closer look

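Of 68 group values of the lists and levels examined (4 libraries each), 6 had 1 library far from the others. The measure was the gap to the nearest library divided by the range of the group, set against Dixon's 95% critical value. A rate of about 1 in 20 by chance assumes independent, normally distributed groups. These groups share the same 8 libraries, and the flagged values are sums and ratios that were not logged, so the 6 cannot be set against that rate. The ratio of Alas2 to Slc4a1 had a gap of 0.988 in WT, where WT3 was high at 13.2, and of 0.839 in KO, where KO4 was high at 1.58. The neutrophil lineage had a gap of 0.912 in WT and the mast cell, basophil and eosinophil list one of 0.99 in WT, where WT1 was high in both. The embryonic and minor globins had a gap of 0.838 in KO, where KO4 was low at 1.75 FPKM summed, and the megakaryocyte and platelet list one of 0.907 in KO, where KO3 was high at 238 FPKM. Causes were not tested.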

How the results depend on the processing

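The log2 differences of the 9 genes were above 0 in every alternative, between 0.52 (Epb42 without WT3) and 3.55 (Slc4a1 without WT1). The globin minus precursor difference, -0.51, was -0.76 with replicates 1 to 3 only and 0.03 at a pseudocount of 1. Median-ratio scaling called 14 other erythroid genes higher (22), 402 genes higher and 363 lower (691 and 76), and 3 cell type markers lower (1). Quantile normalization, which moved the median of all genes from 0.10 to -0.04, called 378 higher, 547 lower and 3 markers lower. Without the filter, 148 genes and 2 markers were lower, and with replicates 1 to 3 only 42 genes were lower. A pseudocount of 1 called 11 markers higher (7). Leaving out 1 library in turn gave 4 (KO2) to 46 (WT1) erythroid genes higher, 292 (KO3) to 1810 (WT1) genes higher, 35 (WT2) to 1112 (WT1) lower, 4 (KO2) to 38 (WT1) markers higher and 1 to 3 (WT1) lower. With both WT1 and WT3 left out, 37 erythroid genes, 1381 genes and 36 markers were higher, 1049 genes and 3 markers lower, and Tie1 turned to -0.02. The causes were not tested. Replicate numbers are shared between groups, and same-numbered deviations correlated at 0.419, -0.24, -0.17 and 0.21 for numbers 1 to 4. No values for different-numbered libraries were set beside them, so they do not decide whether same-numbered libraries were paired. WT1 and KO1 had the greatest depth and the lowest ratios of Hba-a1 to Hba-a2 (1.84 and 2.22). They also had the highest α to β ratios (0.215 and 0.224). A shared batch was not tested. With a replicate block, 18 erythroid genes were called higher and 2 markers lower. Depth limits Gata1, Klf1 and Epb42 in WT3, at 1 to 4 fragments.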
